A study of Mus musculus with 6 samples.

Results

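The chemokine ligand genes of the mouse are described here in 6 lung libraries. They were taken by symbol as every gene named Ccl or Cxcl with a number, plus Cx3cl1, Xcl1, Pf4 and Ppbp, leaving out Ccl17 and Ccl22. This gave 42 of the 56980 genes in the table, 3 of them entries for Ccl19 pseudogenes. Of the 42, 31 had a mean of at least 1 TPM (a transcript's share of its library, corrected for transcript length) over the 6 libraries and were tested.

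The lungs came from NSG mice, a strain without mature T, B or natural killer cells, 5 weeks after cells of the human triple-negative breast cancer line MDA-MB-231 had been placed in a mammary fat pad. In the Ctrl group (n = 3) the injected cells were MDA-MB-231, and in the DPP3_KO group (n = 3) they were MDA-MB-231/DPP3 KO cells, with dipeptidyl peptidase 3 knocked out in the tumour and not in the host. The design text asks about DPP3 carried by tumour exosomes and lung metastasis. The title of the third Ctrl sample names 232 where the others name 231, and was read as the same line. Nothing in the labels says that the numbered replicates are separate mice, so the p-values speak only for the spread among these samples, which may be technical. Alveolar type 2 cell markers summed to 19190 to 49450 TPM per library, as lung tissue should hold, and 12 lymphocyte and natural killer markers to 0.56 to 3.90 TPM.

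Chemokines are small secreted proteins that direct the movement of leukocytes through G protein-coupled receptors. The CXC ligands with an ELR motif draw neutrophils, many CC ligands draw monocytes, eosinophils or dendritic cells, and a few, such as Cxcl12 and the Ccl21 proteins, are made constantly by stromal and endothelial cells and set where cells reside. Many of the inflammatory ligands are switched on through NF-kB, and a smaller set through interferon.

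Promoter sequences are shown for 5 ligands that stand for those routes. Cxcl1 and Cxcl2 are neutrophil ligands that were highest in the same library, Cxcl3 belongs to the same run of CXC genes, Ccl20 passed the test, and Cxcl10 is the interferon-induced ligand. The bases come from RefSeq on GRCm38.p6, 5′ to 3′ on the strand of the gene. The first 4 are the 150 bases before the annotated start, and Cxcl10 is a stretch of 131 bases within the 250 before it. Capitals mark a loose NF-kB pattern (GGG, any 5 bases, CC) on either strand, with overlapping matches merged, and in Cxcl10 also an interferon response pattern (GAAA, any 2 bases, GAAA).
Cxcl1 (chr5:90891095-90891244, + strand): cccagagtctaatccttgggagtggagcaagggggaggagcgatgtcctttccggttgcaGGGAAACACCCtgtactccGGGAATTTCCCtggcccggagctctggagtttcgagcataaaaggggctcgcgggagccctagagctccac
Cxcl2 (chr5:90903749-90903898, + strand): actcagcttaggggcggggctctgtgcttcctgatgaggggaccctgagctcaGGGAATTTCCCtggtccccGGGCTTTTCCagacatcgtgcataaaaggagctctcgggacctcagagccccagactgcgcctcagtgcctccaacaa
Cxcl3 (chr5:90785951-90786100, + strand): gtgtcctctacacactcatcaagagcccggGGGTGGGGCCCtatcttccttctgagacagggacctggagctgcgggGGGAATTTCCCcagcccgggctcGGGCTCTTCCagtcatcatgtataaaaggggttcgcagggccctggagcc
Ccl20 (chr1:83116616-83116765, + strand): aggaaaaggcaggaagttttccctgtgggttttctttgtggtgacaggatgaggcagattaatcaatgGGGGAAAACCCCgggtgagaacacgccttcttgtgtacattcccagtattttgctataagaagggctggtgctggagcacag
Cxcl10 (chr5:92348979-92349109, - strand): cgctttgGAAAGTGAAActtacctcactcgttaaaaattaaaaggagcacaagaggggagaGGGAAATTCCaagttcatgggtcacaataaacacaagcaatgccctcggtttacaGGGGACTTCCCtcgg

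RefSeq promoters of 300 bases (250 before the start and 50 after) were matched for 28 of the 42 genes, with 34 windows. The loose NF-kB pattern was found in 50% of those windows and in 50.8% of all 32851 RefSeq promoters, so its share among the ligands was close to that of the genome. The match held by the most ligands, GGGAAATTCC, was picked after the scan. It was found on either strand in 36 of the 32851 promoters (0.11%), 4 of them those of Cxcl1, Cxcl2, Cxcl3 and Cxcl10. In Cxcl10 it reads as printed, and in the other 3 it lies on the opposite strand. The interferon pattern, searched on both strands, was in 3 of the 34 windows (8.82%), those of Ccl19, Cxcl10 and Cxcl14, against 3.44% of all promoters. These are matches of letters and describe no measured binding.

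The scale matters for every value that follows. The airway secretoglobin Scgb1a1 took 7.16 to 10.1% of all TPM in Ctrl and 21.7 to 28.8% in DPP3_KO, and since TPM are shares, the remaining genes divided a smaller total. Of all 15650 genes tested as deposited, 5321 were lower in DPP3_KO and 216 higher, with a median log2 change of -0.60. Each difference was therefore also computed after median-of-ratios scaling, in which a library is divided by the ratio of its middle gene to the average library. That scaling brought the median over all genes to -0.03, with 138 called lower and 297 higher. Differences are in log2(TPM + 1), DPP3_KO minus Ctrl, which understates the change of genes with low TPM. P-values are from limma with Benjamini-Hochberg adjustment over all 15650 genes.

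In DPP3_KO lungs the mucosal chemokine Cxcl17 and the CCR6 ligand Ccl20 were higher than in Ctrl lungs, and Ccl6, Ccl9, Ccl8, Cxcl12, Ppbp, Ccl25 and Ccl21b were lower, as deposited. The 2 higher genes are 6.45% of the 31 tested, where 1.38% of all genes were called higher. The 7 lower genes are 22.6%, where 34% of all genes were called lower, and that difference was not tested. Among those called, Ccl20 passed the 1 TPM filter through the DPP3_KO libraries and Ccl21b through the Ctrl libraries, which limits both counts. After median-of-ratios scaling 2 ligands were called higher, again Cxcl17 and Ccl20, beside 1.9% of all genes. By the same limma fit 0 were called lower, beside 0.882% of all genes, although 4 had an unadjusted p under 0.05. With any 1 library left out after scaling, Cxcl17 was still called higher (limma adjusted p = 0.0240 to 0.0484). Ccl20 was called in none of those fits (limma adjusted p = 0.060 to 0.18). Without Ctrl replicate 2, 0 of the 31 were called in either direction as deposited (limma, 7 lower and 2 higher at an unadjusted p under 0.05), when 85 of all genes were called lower and 6 higher. The lower count was 2 without Ctrl replicate 1 and 3 without DPP3_KO replicate 3.

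**Figure D1:**
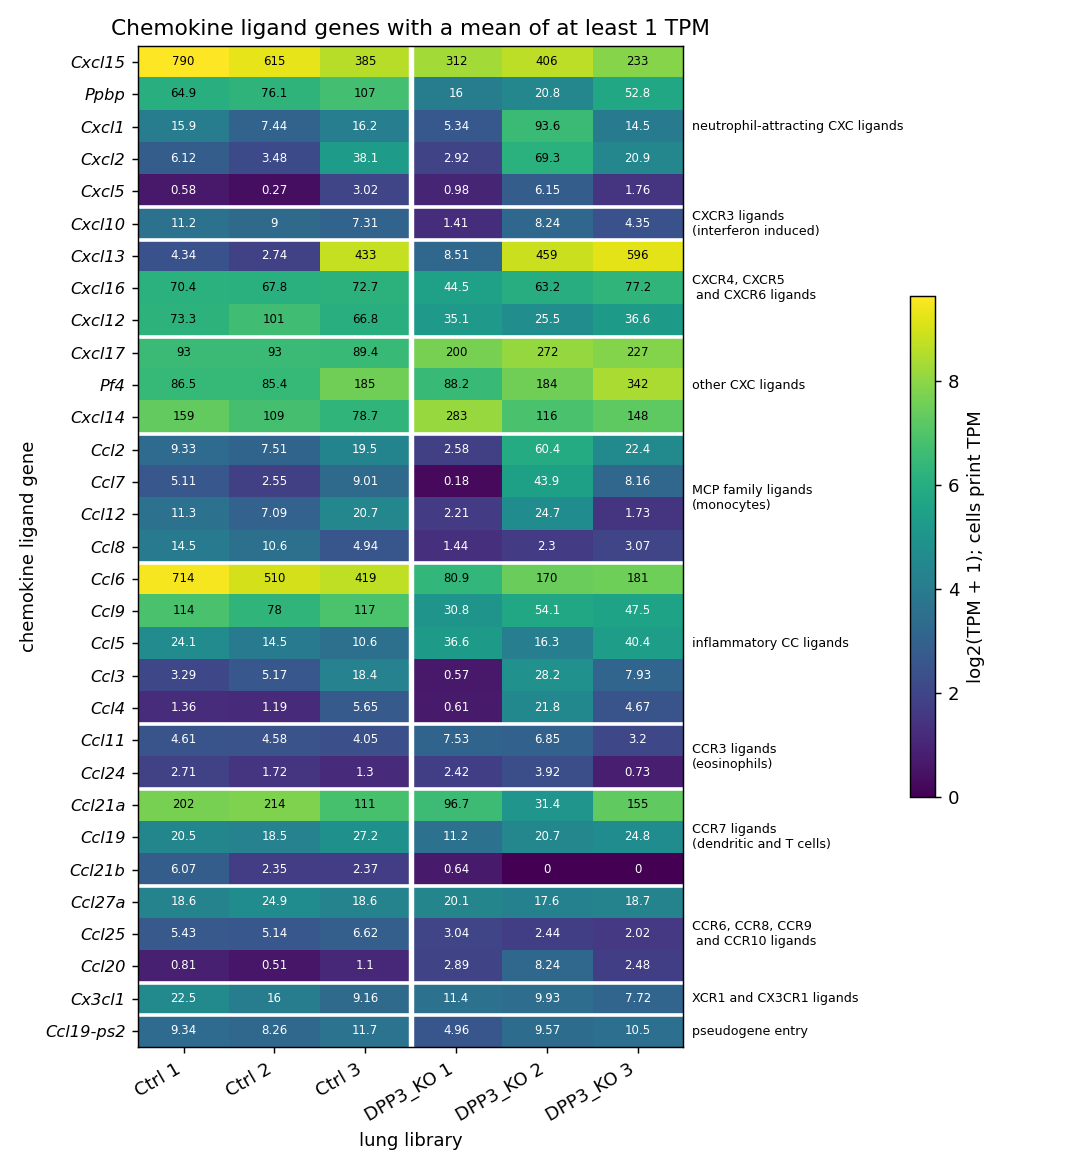
TPM of the 31 tested chemokine ligand genes (rows, grouped by receptor) in the 6 lung libraries (columns), with colour for log2(TPM + 1) and the TPM printed in each cell. Cxcl17 is brighter in all 3 DPP3_KO libraries, Ccl6 is brighter in all 3 Ctrl libraries, and Cxcl13 runs from 2.74 to 595.60 TPM across libraries of both groups.

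Cxcl17 (ENSMUSG00000060188), a chemokine-like protein of mucosal epithelia, had the smallest relative spread among Ctrl libraries of the ligands that passed. It stood at 93.00, 93.03 and 89.43 TPM in Ctrl and at 199.59, 272.32 and 226.72 TPM in DPP3_KO. Every DPP3_KO library lay above every Ctrl library. The means were 91.8 ± 2.07 (SD, n = 3) and 233 ± 36.8 TPM, a 2.54-fold difference (log2 change 1.32 ± 0.17 SE, limma adjusted p = 0.0145). With median-of-ratios scaling the log2 change was 1.98 (limma adjusted p = 0.00970). Removing each library's trend with gene length as well left 1.64 (limma adjusted p = 0.0110). Without Ctrl replicate 2 the call was lost as deposited (limma adjusted p = 0.0662).

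Ccl20 (ENSMUSG00000026166) is the ligand of CCR6 and is made by airway and gut epithelium. Its level was low throughout, at 0.81, 0.51 and 1.10 TPM in Ctrl and 2.89, 8.24 and 2.48 TPM in DPP3_KO. The groups did not overlap, and the second DPP3_KO library stood far above the other two. It passed the 1 TPM filter through the DPP3_KO libraries, since the Ctrl mean was 0.807 ± 0.295 TPM against 4.54 ± 3.21 in DPP3_KO (SD, n = 3 each), a 5.62-fold difference. The log2 change was 1.48 ± 0.41 SE (limma adjusted p = 0.0312), and 1.86 with median-of-ratios scaling, close to the threshold (limma adjusted p = 0.0495). Removing the length trend ended the call (1.64, limma adjusted p = 0.0850). Ccl20 was also not called with any 1 library left out after scaling (limma adjusted p = 0.060 to 0.18). Its receptor gene Ccr6 had a mean of 0.578 TPM and was not tested.

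Airway epithelial markers were also higher in DPP3_KO. The 9 club and ciliated cell markers summed to 74650 to 106000 TPM in Ctrl and 230200 to 297700 in DPP3_KO. Scgb1a1 alone held 71578 to 101282 TPM of this in Ctrl and 217097 to 287457 in DPP3_KO. Of the 9, 7 were called higher, where 1.38% of all genes were, and none was at 0. Within DPP3_KO, replicate 2 had the lowest sum, which is mostly Scgb1a1, and the highest Cxcl17 and Ccl20. The mean log2(TPM + 1) of the 9 markers was also highest there, at 9.9 against 9.57 in replicate 1 and 9.69 in replicate 3. The part of airway cells in the Cxcl17 and Ccl20 results was not tested. In bulk tissue, fewer or more cells of a type and less or more RNA per cell cannot be told apart.

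**Figure D2:**
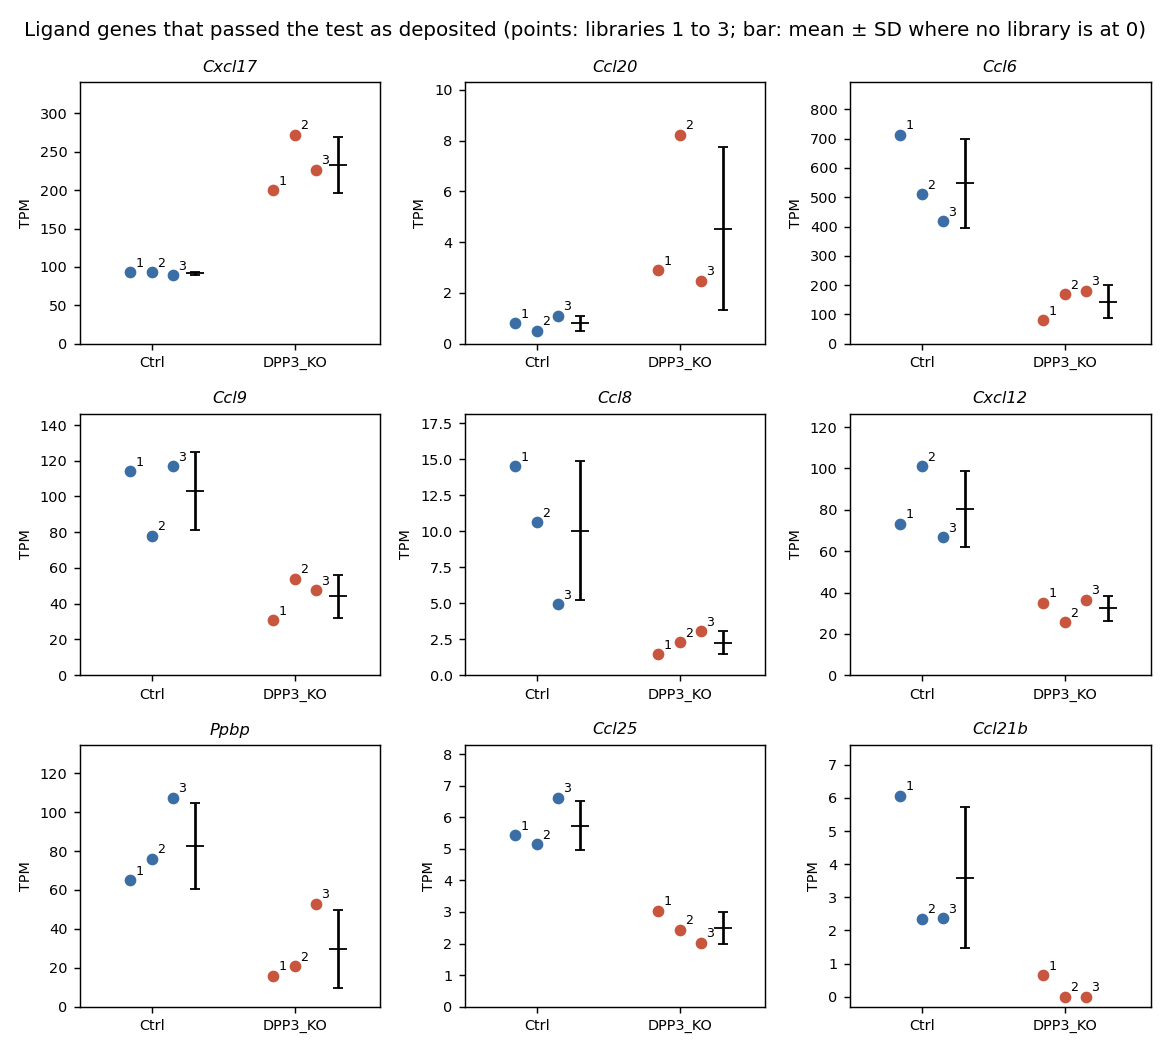
TPM of the 9 ligand genes that passed the limma test as deposited, by group, with points for libraries 1 to 3 and bars for mean ± SD (n = 3) where no library is at 0. Cxcl17 and Ccl20 sit higher in DPP3_KO, the other 7 sit lower, and in none of the 9 do the groups overlap.

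Among the inflammatory CC ligands, which draw monocytes, macrophages and neutrophils, Ccl6 and Ccl9 fell and Ccl3, Ccl4 and Ccl5 were not called. Ccl6 (ENSMUSG00000018927), which resident lung macrophages make in quantity, was the second most abundant ligand in Ctrl replicates 1, 2 and 3. It measured 713.97, 509.86 and 419.12 TPM in Ctrl and 80.90, 169.71 and 181.01 TPM in DPP3_KO. The lowest Ctrl library was still more abundant in Ccl6 than the highest DPP3_KO library. The means of 548 ± 151 and 144 ± 54.8 TPM (SD, n = 3 each) gave a Ctrl level 3.81 times that of DPP3_KO (log2 change -1.97 ± 0.35 SE, limma adjusted p = 0.0157). Scaled by median of ratios, the change was of the same direction and not called (-1.31, limma adjusted p = 0.112). It was the single lower call among the ligands when TPM were rescaled without Scgb1a1 (limma adjusted p = 0.0493).

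Ccl9 (ENSMUSG00000019122), a close relative of Ccl6 encoded beside it, followed the same order of groups. Its TPM were 114.12, 77.95 and 117.00 in Ctrl and 30.78, 54.06 and 47.50 in DPP3_KO, with no overlap. Means were 103 ± 21.8 and 44.1 ± 12 TPM (SD, n = 3 each), and the log2 change was -1.22 ± 0.27 SE (limma adjusted p = 0.0199). The scaled change was -0.57 (limma adjusted p = 0.298), so the call for Ccl9 was lost there too.

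Markers of alveolar macrophages moved in the same direction as Ccl6 and Ccl9. The 12 listed markers summed to 2775, 2228 and 4001 TPM in Ctrl and 254, 1959 and 538 TPM in DPP3_KO. None was at 0 in all 6 libraries, and Fabp1 was at 0 in DPP3_KO replicates 2 and 3. Of the 12, 8 were called lower as deposited and 6 after scaling, where 34% and 0.882% of all genes were. Krt79 and Siglecf are in both counts and passed the 1 TPM filter through the Ctrl libraries alone, which limits both. Their DPP3_KO means were 0.42 and 0.527 TPM. Fabp1, Krt79 and Siglecf are named after their values were seen. In DPP3_KO replicate 2, Chil3 alone held 1404 TPM of the sum. Interstitial macrophage markers summed to 1797 to 2775 TPM in Ctrl and 1994 to 3342 in DPP3_KO, with 0 of 10 called as deposited. Apoe alone held 1500 to 1951 TPM of this in Ctrl and 1543 to 2406 in DPP3_KO. The mean log2(TPM + 1) of the 10 was 4.95 to 6.06 in Ctrl and 4.27 to 5.75 in DPP3_KO, lowest in DPP3_KO replicate 1. The part of either cell type in the ligand values was not tested.

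Ccl5, a T cell and platelet chemokine in intact animals, stood at 24.08, 14.53 and 10.64 TPM in Ctrl and 36.62, 16.31 and 40.42 TPM in DPP3_KO. The groups overlapped and the log2 change of 0.86 was not called (limma adjusted p = 0.130), nor was the scaled change of 1.485. Without DPP3_KO replicate 2 it passed as deposited (1.254, limma adjusted p = 0.0388). Ccl3, a macrophage inflammatory protein, had 3.29, 5.17 and 18.36 TPM in Ctrl and 0.57, 28.25 and 7.93 in DPP3_KO (log2 difference -0.11, limma adjusted p = 0.940), and its sign turned to 0.41 with median-of-ratios scaling. Ccl4, its neighbour, was at 1.36, 1.19 and 5.65 TPM against 0.61, 21.82 and 4.67 TPM (log2 change 0.87, limma adjusted p = 0.468). For both, the second DPP3_KO library was the highest of the 6 and the first was the lowest.

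Of the monocyte-attracting MCP family, Ccl8 fell and Ccl2, Ccl7 and Ccl12 were not called. Ccl8 (ENSMUSG00000009185) is made chiefly by resident macrophages. It read 14.53, 10.62 and 4.94 TPM in Ctrl and 1.44, 2.30 and 3.07 in DPP3_KO, and the groups came close without overlapping. The means were 10.0 ± 4.82 and 2.27 ± 0.815 TPM (SD, n = 3 each), with a log2 change of -1.68 ± 0.39 SE (limma adjusted p = 0.0216). After scaling it was not called (-1.15, limma adjusted p = 0.148).

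Ccl2, the main ligand of the monocyte receptor CCR2, was at 9.33, 7.51 and 19.54 TPM in Ctrl and 2.58, 60.43 and 22.44 in DPP3_KO. Ccl7, which shares that receptor, was at 5.11, 2.55 and 9.01 TPM and at 0.18, 43.94 and 8.16 TPM. Within DPP3_KO alone the highest Ccl7 library was 244 times the lowest, so the DPP3_KO libraries spanned all of the Ctrl values for both genes. Log2 changes were 0.50 (limma adjusted p = 0.684) for Ccl2 and 0.39 (limma adjusted p = 0.805) for Ccl7. Ccl12, a mouse ligand of CCR2, measured 11.34, 7.09 and 20.71 TPM against 2.21, 24.66 and 1.73 TPM (log2 change -1.09, limma adjusted p = 0.324). Without DPP3_KO replicate 2 its change was -2.13 and passed (limma adjusted p = 0.0264). Ccr2 itself fell, from 25.39, 42.04 and 33.29 TPM to 9.42, 21.11 and 11.66 TPM (log2 change -1.25, limma adjusted p = 0.0272), and was not called after scaling (-0.62, limma adjusted p = 0.243). Summed monocyte markers, Ccr2 among them, were 1702, 1702 and 1961 TPM in Ctrl and 555.1, 947 and 615 in DPP3_KO. Of this, Ace held 475 to 564 TPM in Ctrl and 99.8 to 217 in DPP3_KO, and Fn1 175 to 318 and 97.5 to 119. Of the 10, 5 were called lower as deposited and 0 after scaling, where 34% and 0.882% of all genes were. The part of monocytes in the values of Ccl8 and Ccr2 was not tested.

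**Figure D3:**
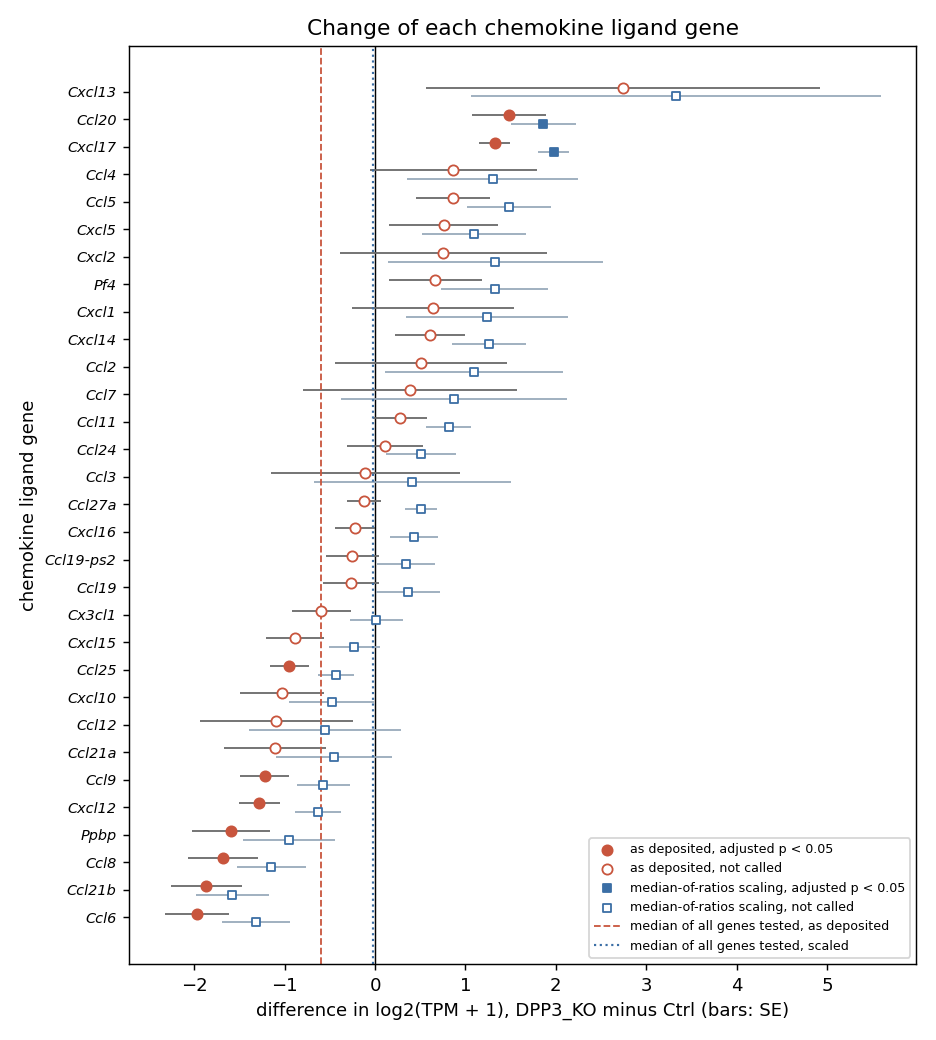
Log2 change of each of the 31 tested ligand genes, DPP3_KO minus Ctrl, as deposited (circles) and after median-of-ratios scaling (squares), with bars for SE and filled symbols for a limma adjusted p under 0.05. Dashed and dotted lines mark the medians of all genes tested, -0.60 and -0.03. Scaling moves every gene to the right, which leaves Cxcl17 and Ccl20 as the filled squares.

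The neutrophil-attracting CXC ligands gave 1 lower call, Ppbp, of the 5 tested. Cxcl15, or lungkine, a lung epithelial chemokine that draws neutrophils, was the most abundant ligand in Ctrl replicates 1 and 2 and in DPP3_KO replicate 1. Its TPM were 789.56, 615.25 and 385.01 in Ctrl and 312.02, 406.47 and 232.92 in DPP3_KO. The third Ctrl library lay below the second DPP3_KO library, and the change of -0.89 was not called (limma adjusted p = 0.0639; -0.23 after scaling). It passed without Ctrl replicate 3 (-1.17, limma adjusted p = 0.0325).

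Ppbp (ENSMUSG00000029372) encodes platelet basic protein, the precursor of the neutrophil-activating peptide NAP-2. It was at 64.87, 76.13 and 107.48 TPM in Ctrl and at 15.96, 20.84 and 52.83 TPM in DPP3_KO, and no DPP3_KO library reached the lowest Ctrl library. Means were 82.8 ± 22.1 and 29.9 ± 20.03 TPM (SD, n = 3 each), with a log2 change of -1.60 ± 0.43 SE (limma adjusted p = 0.0303). After scaling the change of -0.95 was not called (limma adjusted p = 0.314). Pf4, platelet factor 4, is released from the same platelet granules, is also made by some macrophages, and lies beside Ppbp in the genome. It read 86.46, 85.41 and 184.91 TPM in Ctrl and 88.16, 183.70 and 341.50 TPM in DPP3_KO (log2 difference 0.67, limma adjusted p = 0.322). Here the groups overlapped, with a single high library in Ctrl and a pair of high libraries in DPP3_KO.

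The ratio of Ppbp to Pf4 within a library does not depend on the scale. It was 0.750, 0.891 and 0.581 in Ctrl and 0.181, 0.113 and 0.155 in DPP3_KO, so the groups were apart. The mean ratio was 0.741 ± 0.155 against 0.150 ± 0.0341 (SD, n = 3 each), and the two-sided exact permutation p of 0.1 is the smallest that 3 libraries against 3 can give. The pair was chosen after its values had been seen. The 10 platelet and megakaryocyte markers summed to 106, 112 and 127 TPM in Ctrl and 50.0, 63.2 and 139 in DPP3_KO, with none at 0. Of the 10, 9 were tested and 1 was called lower as deposited, where 34% of all genes were. The part of platelets in the Ppbp result was not tested.

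Cxcl1, the keratinocyte-derived chemokine that acts on CXCR2, stood at 15.86, 7.44 and 16.17 TPM in Ctrl and 5.34, 93.60 and 14.46 in DPP3_KO (log2 difference 0.64, limma adjusted p = 0.581). Cxcl2, macrophage inflammatory protein 2, read 6.12, 3.48 and 38.06 TPM against 2.92, 69.26 and 20.86 TPM (log2 change 0.76, limma adjusted p = 0.610). Both were highest in the second DPP3_KO library and lowest in the first, so the DPP3_KO group held both extremes. Cxcl5, an epithelial ligand of CXCR2, ran from 0.27 to 6.15 TPM and was not called (0.76, limma adjusted p = 0.332). Cxcl3, with the same promoter match as Cxcl1 and Cxcl2, had a mean of 0.998 TPM, just under the filter, where the lowest tested mean was 1.91 TPM for Ccl21b.

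Receptors for these ligands differed from each other. Cxcr1 fell from 21.79, 14.80 and 8.64 TPM to 0.49, 0.36 and 0.37 TPM (log2 change -3.43 ± 0.33 SE, limma adjusted p = 0.0118; -3.01 after scaling, limma adjusted p = 0.0120). It passed the 1 TPM filter through the Ctrl libraries alone, since the DPP3_KO mean was 0.407 TPM. Cxcr2, the other receptor of the family and a neutrophil marker, was at 48.75, 103.66 and 195.32 TPM against 19.29, 177.51 and 57.71 TPM and was not called (-0.76, limma adjusted p = 0.469). The 12 neutrophil markers, Cxcr2 among them, summed to 4166, 7352 and 53330 TPM in Ctrl and 1782, 37090 and 15400 in DPP3_KO, with 0 called by limma and none at 0. Within each group, the library with the highest sum was also the highest for Cxcl1, Cxcl2, Ccl2, Ccl7, Ccl3 and Ccl4. The part of neutrophils in those values was not tested.

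**Figure D4:**
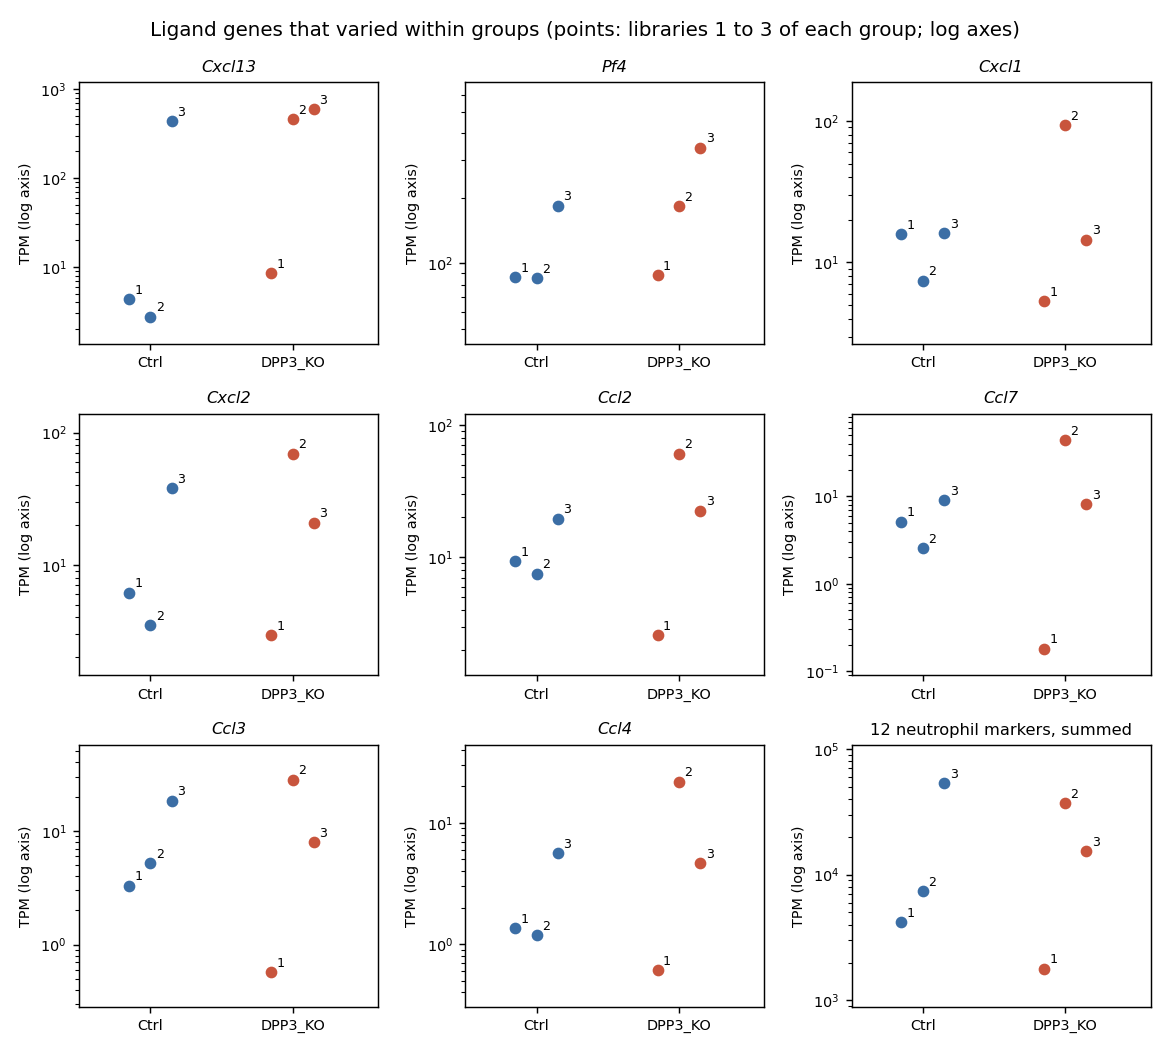
TPM on log axes of 8 ligand genes that varied within groups, with points for libraries 1 to 3, and the summed TPM of 12 neutrophil markers in the last panel. In most panels Ctrl replicate 3 and DPP3_KO replicates 2 and 3 sit above the other libraries, and DPP3_KO replicate 1 sits at or near the bottom except for Cxcl13 and Pf4.

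Cxcl12, Cxcl13 and Cxcl16 are homing ligands with a receptor each, and their levels followed different patterns. Cxcl12 (ENSMUSG00000061353), the stromal ligand of CXCR4 that retains leukocytes and draws CXCR4-bearing tumour cells, was at 73.31, 101.15 and 66.80 TPM in Ctrl and 35.12, 25.54 and 36.59 in DPP3_KO. All Ctrl libraries lay above all DPP3_KO libraries. The means were 80.4 ± 18.3 and 32.4 ± 6.00 TPM (SD, n = 3 each), a log2 change of -1.28 ± 0.23 SE (limma adjusted p = 0.0159). The change was -0.63 after scaling and was not called (limma adjusted p = 0.206). Its receptor genes Cxcr4 (-1.001, limma adjusted p = 0.0156) and Ackr3, a scavenging receptor (-1.15, limma adjusted p = 0.0218), fell as deposited. Both calls were lost after scaling, with -0.36 for Cxcr4 (limma adjusted p = 0.286) and -0.51 for Ackr3 (limma adjusted p = 0.379). Capillary markers summed to 3187 to 3788 TPM in Ctrl and 1253 to 2094 in DPP3_KO. Of the 10, 7 were called lower and 3 after scaling, where 34% and 0.882% of all genes were. The part of capillary cells in the Cxcl12 values was not tested.

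Cxcl13, the B cell follicle chemokine and ligand of CXCR5, varied more within each group than between them. It was at 4.34, 2.74 and 433.26 TPM in Ctrl and 8.51, 458.69 and 595.60 TPM in DPP3_KO. In 3 libraries it was at most 8.51 TPM and in the other 3 at least 433.26 TPM, and each group held both kinds. The highest Ctrl library was 158 times the lowest, and in DPP3_KO 70.0 times. The change of 2.74 ± 2.18 SE was not called (limma adjusted p = 0.333). It made up 18.8, 20.3 and 25.9% of all ligand TPM in the high libraries and 0.130 to 0.647% in the low ones. Cxcr5 had a mean of 0.723 TPM, and the lymphocyte markers were near 0 as given above.

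Cxcl16, a membrane-bound ligand of CXCR6 and scavenger receptor, was not called. Its TPM were 70.41, 67.78 and 72.74 in Ctrl and 44.54, 63.22 and 77.17 in DPP3_KO, with a change of -0.22 (limma adjusted p = 0.444) that was 0.43 after scaling. Cxcl14, an epithelial and stromal chemokine, was at 159.18, 108.56 and 78.72 TPM against 283.46, 115.86 and 148.25 TPM (0.61, limma adjusted p = 0.234). Its groups overlapped in the deposited TPM and did not overlap after scaling, where the change was 1.26 and was not called (limma adjusted p = 0.139). It was the second most abundant ligand in DPP3_KO replicate 1.

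Ligands of CCR7, which guide dendritic cells and T cells towards lymphatic vessels, included the lower call Ccl21b (ENSMUSG00000095675). It was at 6.07, 2.35 and 2.37 TPM in Ctrl, at 0.64 TPM in DPP3_KO replicate 1, and was listed at 0 in replicates 2 and 3. It passed the 1 TPM filter through the Ctrl libraries alone, and no fold is given against values of 0. The log2 change was -1.87 ± 0.39 SE (limma adjusted p = 0.0187) and was not called after scaling (-1.58, limma adjusted p = 0.0885). The Ccl21 genes are near copies of each other, so reads may have been divided between them, and the Ccl21b call is uncertain. Ccl21a, the abundant copy, read 201.72, 214.23 and 111.28 TPM in Ctrl and 96.69, 31.41 and 154.96 in DPP3_KO and was not called (-1.10, limma adjusted p = 0.153). Lymphatic endothelial markers summed to 763, 889 and 731 TPM in Ctrl and 295, 97.4 and 178 in DPP3_KO. Lyve1 held most of each sum, at 638 to 762 TPM in Ctrl and 69.2 to 260 in DPP3_KO. Of the 5 tested, 4 were called lower and 1 after scaling, where 34% and 0.882% of all genes were. Prox1 of the same list, named after its values were seen, averaged 0.637 TPM in Ctrl and 0.65 in DPP3_KO and was not tested. The part of lymphatic cells in the Ccl21 values was not tested.

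Ccl19, the other CCR7 ligand, was at 20.47, 18.50 and 27.17 TPM against 11.17, 20.72 and 24.79 TPM (-0.26, limma adjusted p = 0.510; 0.36 after scaling). The pseudogene entry Ccl19-ps2 held 0.422 to 0.462 of the Ccl19 value in every library, and shared reads make both uncertain. The receptor gene Ccr7, a mark of mature dendritic cells, went the other way from Ccl21b. It rose from 6.56, 6.23 and 3.67 TPM to 40.20, 15.15 and 12.30 TPM (log2 change 1.71, limma adjusted p = 0.0268; 2.29 after scaling, limma adjusted p = 0.0470). Of 10 dendritic cell markers, Ccr7 among them, 9 were tested. As deposited, 2 were called higher and 2 lower, where 1.38% and 34% of all genes were. After scaling, 1 was called higher and 1 lower, where 1.9% and 0.882% of all genes were. The 10 markers summed to 1729, 1288 and 513 TPM in Ctrl and 731, 313 and 674 in DPP3_KO. Cd74 held most of each sum, at 366 to 1306 TPM in Ctrl and 182 to 481 in DPP3_KO.

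Ccl25 (ENSMUSG00000023235), the thymus and gut ligand of CCR9, was at 5.43, 5.14 and 6.62 TPM in Ctrl and 3.04, 2.44 and 2.02 in DPP3_KO, without overlap. The means of 5.73 ± 0.784 and 2.5 ± 0.513 TPM (SD, n = 3 each) gave a change of -0.95 ± 0.22 SE (limma adjusted p = 0.0216), which was -0.43 and not called after scaling (limma adjusted p = 0.261). Ccl27a, an epithelial ligand of CCR10, was among the steadiest members, at 18.58, 24.88 and 18.65 TPM against 20.06, 17.64 and 18.70 TPM (-0.12, limma adjusted p = 0.612; 0.51 after scaling). Cx3cl1, the membrane-tethered chemokine fractalkine, measured 22.47, 16.01 and 9.16 TPM against 11.38, 9.93 and 7.72 TPM (-0.59, limma adjusted p = 0.177), and passed without Ctrl replicate 3 (-0.92, limma adjusted p = 0.0426).

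The eosinophil ligands of CCR3 were low and not called. Ccl11, eotaxin, was at 4.61, 4.58 and 4.05 TPM in Ctrl and 7.53, 6.85 and 3.20 in DPP3_KO (0.28, limma adjusted p = 0.475). Ccl24 ran from 0.73 to 3.92 TPM with overlap of the groups (0.11, limma adjusted p = 0.846). Cxcl10, an interferon-induced ligand of CXCR3, read 11.21, 9 and 7.31 TPM against 1.41, 8.24 and 4.35 TPM (-1.03, limma adjusted p = 0.116). For it, the third Ctrl library lay below the second DPP3_KO library, and without that DPP3_KO library the change was -1.49 (limma adjusted p = 0.0364). Of 18 listed interferon response genes, 11 were called lower as deposited and 0 after scaling (limma), where 34% and 0.882% of all genes were. The medians of these 18 were -1.23 and -0.64, beside -0.60 and -0.03 over all genes.

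The 11 members under 1 TPM were not tested. Ccl1, Ccl26, Ccl21d and Ccl19-ps1 were listed at 0 in all 6 libraries. Cxcl9, another CXCR3 ligand, was at 2.10, 0.70 and 0.25 TPM in Ctrl and 0, 0.08 and 0.05 in DPP3_KO, and Cxcl3 ran from 0.18 to 2.06 TPM. Ccl28 ran from 0.26 to 0.79 TPM. Ccl27b was at 0.63, 0 and 0.82 TPM in Ctrl and at 0 in DPP3_KO. Xcl1, a ligand of XCR1 made by T and natural killer cells, was at 0.76 TPM in Ctrl replicate 2 and 0 elsewhere. Cxcl11 reached at most 0.03 TPM, and Ccl19-ps3 was at 3.38 TPM in DPP3_KO replicate 3 and 0 elsewhere.

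As a group, the ligands had a wider spread between libraries of a group than genes at large, with no test of that difference. The median within-group SD of log2(TPM + 1) was 0.589 for the 31 ligands and 0.311 for all genes tested, and 8 ligands had an SD over 1. That spread was not particular to the ligands. The same median was 0.586 for the receptors, 0.579 for the NF-kB list, 1.90 for the neutrophil markers and 0.406 for the interferon list. The median log2 change was -0.12 for the ligands and -0.60 for all genes as deposited, and 0.43 and -0.03 after scaling. Beside the 9 called, 10 ligands had a change below 0 and 12 above. Groups did not overlap for 7 ligands that were lower and 2 that were higher, where the shares of all genes were 51.1% and 2.73%. After scaling, 4 were lower and 5 higher without overlap, 12.9% and 16.1% of the ligands, where 15.4% and 14.6% of all genes were.

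Single libraries stood out for many ligands. DPP3_KO replicate 2 had the highest TPM for 11 of the 31, and 8.06% of all genes were highest there. DPP3_KO replicate 1 had the lowest TPM for 14 of the 31, where 24.5% of all genes were lowest. After scaling DPP3_KO replicate 2 was again the highest for 11 (12.8% of all genes), while Ctrl replicate 2 was the lowest for 11 (14.1%) and DPP3_KO replicate 1 for 9 (16.4%). As deposited, for 10 ligands the 3 highest libraries were Ctrl replicate 3 and DPP3_KO replicates 2 and 3. These were Cxcl13, Pf4, Cxcl2, Cxcl5, Ccl2, Ccl7, Ccl3, Ccl4, Ccl19 and Ccl19-ps2, and none of them passed the test.

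Summed over all 42 members, ligand TPM were 2569, 2105 and 2303 in Ctrl and 1316, 2259 and 2299 in DPP3_KO. After scaling the sums were 2045, 1553 and 1937 in Ctrl and 1628, 2487 and 3287 in DPP3_KO. The sums overlapped on both scales, with the lowest library being DPP3_KO replicate 1 as deposited and Ctrl replicate 2 after scaling, and their makeup differed between libraries. Cxcl15 and Ccl6 led in Ctrl replicate 1, with 30.7% and 27.8% of the sum, and in replicate 2, with 29.2% and 24.2%. In Ctrl replicate 3 and in DPP3_KO replicates 2 and 3, Cxcl13 led.

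**Figure D5:**
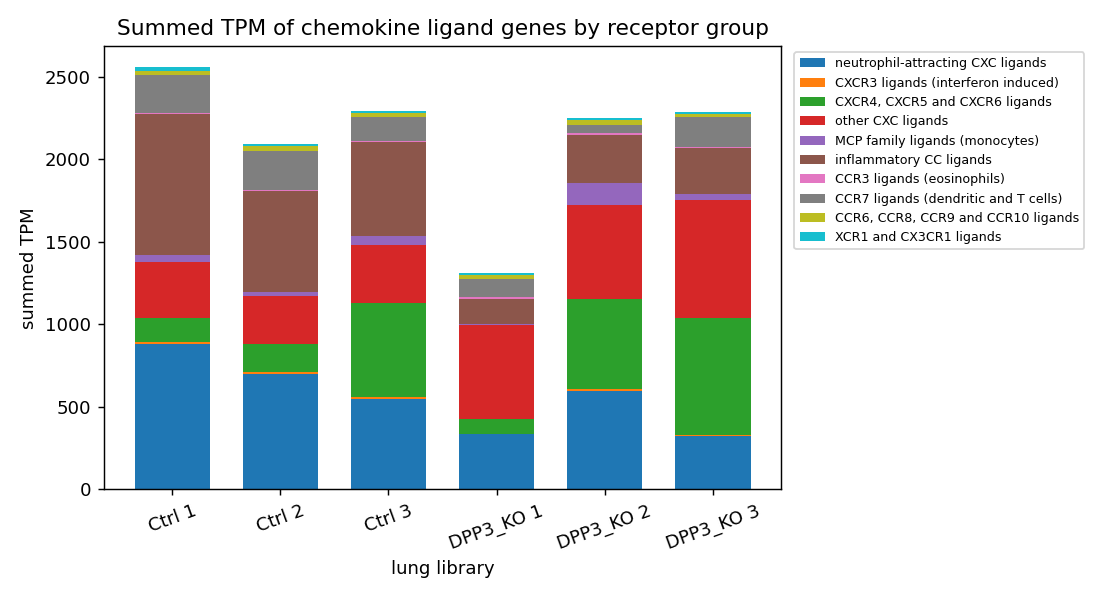
Summed TPM of the chemokine ligand genes in each lung library, stacked by receptor group, without the pseudogene entries. DPP3_KO replicate 1 has the lowest bar, the inflammatory CC ligands take 570.8 to 856.8 TPM in Ctrl and 149.5 to 290.2 in DPP3_KO, and the slice that holds Cxcl13 is wide in Ctrl replicate 3 and DPP3_KO replicates 2 and 3.

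Of 24 chemokine receptor genes listed, 13 were tested, 6 were called lower (Cxcr1, Cxcr4, Ackr3, Ccrl2, Ccr2 and Ackr2) and 1 higher (Ccr7), where 34% and 1.38% of all genes were. After scaling Cxcr1 was still called lower and Ccr7 higher, where 0.882% and 1.9% of all genes were. Cxcr1 passed the filter through the Ctrl libraries alone. Without Ctrl replicate 2, 1 receptor was called lower and 0 higher as deposited (limma, 6 and 1 at an unadjusted p under 0.05). Without Ctrl replicate 1, 2 were called lower and 0 higher, and without DPP3_KO replicate 3, 3 were called lower. The median change of the 13 was -0.90 as deposited and -0.27 after scaling. Ackr2, a decoy receptor that clears inflammatory CC chemokines, had a change of -1.42 (limma adjusted p = 0.0145; -0.79 after scaling, limma adjusted p = 0.0982). Ackr1, the decoy receptor of venules and red cells, stood at 3.21, 2.27 and 32.12 TPM in Ctrl and 5.54, 15.66 and 18.21 in DPP3_KO. Its high libraries were again Ctrl replicate 3 and DPP3_KO replicates 2 and 3, and it was not called (0.73, limma adjusted p = 0.518).

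Of 20 NF-kB targets and regulators, the pathway behind many inflammatory ligands, 3 were called lower as deposited and 0 after scaling (limma). Among all genes, 34% and 0.882% were called lower in those fits. The list's median was -0.36 and 0.26, beside -0.60 and -0.03 over all genes. Its summed TPM were 1161, 1010 and 1574 in Ctrl and 545, 1352 and 817 in DPP3_KO, so DPP3_KO replicate 1 was the lowest here as for many of the ligands.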

How the data were processed

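RNA sequencing of total RNA in 6 mouse lung samples (TruSeq libraries, per the labels' protocols) was analysed. The deposited values are TPM per gene made by the authors. HISAT2, StringTie, RSEM and GRCm39 are named per the submitters' processing notes, without versions or roles. Information on the annotation release, the strand setting and reads from human cells was not given in the sources used here. TPM keeps no depth, so the depth is unknown and no counting interval or floor is given. All value columns matched a sample.

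Groups came from sample titles. Log2(TPM + 1) of the 15650 genes whose mean reached 1 TPM was fitted with limma 3.58.1 (R 4.3.3, intensity trend), DPP3_KO against Ctrl, two-sided, with Benjamini-Hochberg adjustment and a threshold of 0.05. The fit was tested on simulated data. Alternatives were other pseudocounts and filters, median-of-ratios and quantile scaling, TPM without Scgb1a1, removal of the length trend (lowess span 0.3), no trend, the replicate block and each library left out. Every ligand could be named, receptors whose mean reached 1 TPM, and up to 3 genes of other lists. For scaling, the filter was kept on deposited TPM. Sequences and gene neighbours came from RefSeq tables, and no GRCm39 coordinates were used. Members and lists were chosen with earlier results of these data known. A few items are not reported here.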

Additional observations from a re-analysis of the deposited data

How the results depend on the processing

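As deposited, 7 ligands were called lower and 2 higher, and 6 receptors lower and 1 higher. Pseudocounts of 0.1 and 5 and limma without the trend gave the same counts. The lower ligand count was 4 with no filter, 1 with TPM rescaled without Scgb1a1, and 0 by limma with median-of-ratios scaling, quantile normalization, scaling with the length trend removed, or scaling with the replicate block (4 or 5 at an unadjusted p under 0.05 in each). The higher ligand count was 1 with no filter, with a mean of at least 5 TPM, without Scgb1a1, with the length trend removed and with the replicate block, and 0 with scaling and the block (7 at an unadjusted p under 0.05). Lower receptors numbered 1 with median-of-ratios, quantile, length trend removal and scaling with the block, and 2 without Scgb1a1. Higher receptors numbered 0 with no filter, without Scgb1a1, with the length trend removed and with scaling and the block (1 at an unadjusted p under 0.05 in each). Leaving out 1 library, as deposited or after scaling, gave 0 to 8 lower and 0 to 3 higher ligands, 0 to 6 lower and 0 to 1 higher receptors, and a median ligand change of -0.41 to 0.65 (-0.12 with all libraries). In the scaled fits with 1 library left out, Cxcl17 was the only ligand called higher. The cause of the differences between settings was not tested.

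Whether replicate numbers pair the samples could not be decided from the values. Deviations of equal numbers correlated at 0.271, -0.206 and 0.147, and not every sample correlated best with its own number. Such correlations cannot show how the samples were arranged. With the replicate block 8 ligands were called lower, Cxcl15 being the added one, and Ccl20 was not called (limma adjusted p = 0.0514).

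No called ligand turned direction under any alternative. Uncalled ligands did. Cxcl16 became 0.43 with median-of-ratios scaling, 0.35 with quantile normalization, 0.086 without Scgb1a1, 0.44 with the length trend removed and 0.43 with scaling and the block. In the same order Ccl19 became 0.36, 0.38, 0.033, 0.023 and 0.36, Ccl27a 0.51, 0.55, 0.18, 0.19 and 0.51, and Ccl3 0.41, 0.50, 0.11, 0.072 and 0.41, with 0.094 at a pseudocount of 5. Ccl19-ps2 became 0.34, 0.39 and 0.028 under the first 3 and 0.34 with the block, Cx3cl1 0.013, 0.074, 0.098 and 0.013 under all but the rescaling without Scgb1a1, and Ccl7 -0.10 at a pseudocount of 0.1. Over all fits with 1 library left out, with deposited TPM and with scaled values together, the ranges that crossed 0 were -0.49 to 0.70 for Ccl19, -0.43 to 0.65 for Ccl19-ps2, -0.41 to 2.27 for Ccl2, -1.59 to 0.29 for Ccl21a, -0.23 to 0.93 for Ccl24, -0.19 to 0.64 for Ccl27a, -1.10 to 1.61 for Ccl3, -0.11 to 2.32 for Ccl4, -0.87 to 2.34 for Ccl7, -0.92 to 0.29 for Cx3cl1, -0.44 to 2.13 for Cxcl1, -1.49 to 0.067 for Cxcl10, -1.17 to 0.0082 for Cxcl15, -0.40 to 0.65 for Cxcl16 and -0.22 to 2.48 for Cxcl2. With deposited TPM alone, Ccl21a, Cx3cl1, Cxcl10, Cxcl15 and Cxcl16 stayed below 0 with any 1 library left out.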

Other observations

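Neighbouring ligand genes differed in their changes. In the run of genes that holds Ccl9 and Ccl6, these were called lower as deposited, while Ccl3 and Ccl4 in the same run were not called (-0.11 and 0.87). In the run that holds Ccl2, Ccl7, Ccl11, Ccl12 and Ccl8, only Ccl8 was called (-1.68, limma adjusted p = 0.0216). In the CXC run, Ppbp was called lower, and Pf4, Cxcl15, Cxcl1, Cxcl2 and Cxcl5 were not. Differences between neighbours were not tested.

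Chemokines are held on cell surfaces by heparan sulfate, a sulfated sugar chain that shapes their gradients. Of 12 listed genes for its core proteins and enzymes, 4 were called lower as deposited, Ndst1, Ext2, Hs2st1 and Ext1, where 34% of all genes were. Ext2, Hs2st1 and Ext1 lie outside the naming rule and are named after their values were seen. The list's median was -0.67 in the deposited TPM and -0.05 with median-of-ratios scaling, beside -0.60 and -0.03 over all genes. Ndst1, an enzyme that starts sulfation of the chain, was the one gene of the 12 called after scaling (-1.22, limma adjusted p = 0.0470).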
